A study of Mus musculus with 15 samples.

Results

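Transcripts of 10 receptors by which myeloid cells recognise self or damp their own activation were followed through macrophage differentiation and through exposure to interleukin 4 (IL4). The 10 genes are Sirpa, Cd47, Siglec1, Siglece, Cd33, Pirb, Pilra, Lilrb4a, Cd200r1 and Cd300a, and they were found by exact gene symbol. All 10 had a row among the 34245 of the differentiation table, and 8 had one among the 25965 of the IL4 table. Pirb and Lilrb4a have no row under these symbols in the IL4 table, and their rows were found there by gene identifier, under the older names Lilrb3 and Lilrb4. All 10 passed the filter on low counts in differentiation, as did the 8 in the IL4 table.

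Most of these receptors carry tyrosine motifs (ITIMs) in the cytoplasmic tail. Src-family kinases phosphorylate the motifs when a ligand is bound, and the phosphatases SHP-1, SHP-2 and SHIP-1, which are then recruited, weaken activating signals. On macrophages they read signs of healthy self, such as CD47, sialic acid, MHC class I or CD200, and restrain phagocytosis and inflammatory signalling. Siglec1 differs in that it has no such motif and serves as an adhesion and capture receptor, and Cd47 is listed here as the ligand that SIRPA reads.

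RNA of bone marrow cells from male C57BL/6 mice aged 8 to 10 weeks was sequenced by Ion Torrent after culture in CSF-1, the cytokine that drives cells of this lineage to grow and mature. Non-adherent precursors had spent 2 days in 0.6 ng/ml CSF-1 with 15% fetal calf serum, immature macrophages a further 4 days in 12 ng/ml with 10% serum, and mature macrophages 1 day in 0.6, 2 days in 12 and 7 days in 120 ng/ml. For the IL4 table, mature macrophages were kept for another 48 h with 20 ng/ml IL4, or for 48 h without it (unstimulated). Each of the 5 groups held 3 libraries, numbered by mouse in the titles, so the spread given is that between libraries of different mice. CSF-1 dose and time change together between the stages and, for the precursors, serum and lack of adherence change with them. These cannot be told apart. Mature macrophages, with or without the added 48 h, had 15% and then 10% serum, as immature ones did. Immature cells were not a step on the path of the mature ones, which had 2 and not 4 days at 12 ng/ml.

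Gene counts summed to 7897769 to 22167294 reads in the 9 libraries of the differentiation table and to 2408531 to 4214266 reads in the 6 of the IL4 table. Levels below are CPM, counts brought to a common library total after TMM scaling. The sum of 12 macrophage markers was 1810 to 3031 CPM in precursors, 19681 to 28022 CPM in immature and 21620 to 31250 CPM in mature macrophages. The sum of 14 neutrophil markers was 13951 to 20875 CPM in precursors, led by S100a9 at 6756 ± 1337 CPM (SD, n = 3), 233 to 287 CPM in immature and 0.729 to 5.13 CPM in mature macrophages, where 10 of the 14, Ly6g and Mpo among them, had no read. Precursors also held markers of B lineage cells (313 to 456 CPM summed over 9 genes, led by Cd79a), eosinophils, mast cells and basophils (160 to 208 CPM over 9, led by Prg2) and erythroid cells (135 to 291 CPM over 8, led by Hbb-bs), sums that were at most 9.47 CPM in immature and mature macrophages. T and NK markers were at most 7.83 CPM over 7 genes, led by Nkg7. For 8 dendritic cell markers, led by Bst2, the sum was 297 to 386 CPM in precursors and 196 to 239 CPM in immature macrophages. It was 348 to 555 CPM in mature ones. Most of the 8 nevertheless fell from their precursor level. By edgeR calls, 7 fell and 1 rose in the immature stage, and 6 fell and 1 rose in the mature stage. Flt3, Siglech, Xcr1, Clec9a and Ccr7 had no read in mature macrophages. Bst2 averaged 71.3 ± 32.9 CPM in precursors, 214 ± 23.9 CPM in immature and 329 ± 159 CPM in mature macrophages (SD, n = 3 each). In such bulk RNA, fewer cells of a type and less RNA per cell cannot be told apart.

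RefSeq promoter windows of 300 bases (250 before and 50 after the annotated start, GRCm38.p6) were used for 6 of the 10 genes, and none for Sirpa, Siglec1, Lilrb4a and Cd200r1. They are shown for the 4 genes with such a window that changed with IL4 by symbol, since these are the members whose movement the results below turn on. The windows are chr7:43660112-43660411, minus strand, for Siglece, chr7:43533122-43533421, minus strand, for Cd33, chr5:137836229-137836528, minus strand, for Pilra and chr11:114889791-114890090, plus strand, for Cd300a. Capitals mark matches, on either strand, to the PU.1-type letters GAGGAA or, in Pilra, to the interferon-response-type pattern, GAAA and GAAA 2 bases apart.
Siglece: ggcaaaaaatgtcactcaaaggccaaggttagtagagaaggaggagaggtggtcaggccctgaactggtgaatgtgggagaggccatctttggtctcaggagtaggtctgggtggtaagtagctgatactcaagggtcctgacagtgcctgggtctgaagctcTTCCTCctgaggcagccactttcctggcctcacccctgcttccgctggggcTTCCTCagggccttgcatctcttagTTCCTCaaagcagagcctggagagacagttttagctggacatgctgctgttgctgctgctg
Cd33: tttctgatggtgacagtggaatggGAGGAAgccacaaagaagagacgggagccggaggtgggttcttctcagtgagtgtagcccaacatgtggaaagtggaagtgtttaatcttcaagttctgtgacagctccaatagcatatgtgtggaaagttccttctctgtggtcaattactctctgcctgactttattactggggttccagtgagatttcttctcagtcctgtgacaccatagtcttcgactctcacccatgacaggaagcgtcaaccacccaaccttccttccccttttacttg
Pilra: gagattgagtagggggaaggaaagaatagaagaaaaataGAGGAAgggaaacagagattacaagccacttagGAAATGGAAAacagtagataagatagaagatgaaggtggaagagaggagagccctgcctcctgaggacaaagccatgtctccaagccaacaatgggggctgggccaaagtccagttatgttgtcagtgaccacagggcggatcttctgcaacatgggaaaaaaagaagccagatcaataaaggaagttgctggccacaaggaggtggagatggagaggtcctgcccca
Cd300a: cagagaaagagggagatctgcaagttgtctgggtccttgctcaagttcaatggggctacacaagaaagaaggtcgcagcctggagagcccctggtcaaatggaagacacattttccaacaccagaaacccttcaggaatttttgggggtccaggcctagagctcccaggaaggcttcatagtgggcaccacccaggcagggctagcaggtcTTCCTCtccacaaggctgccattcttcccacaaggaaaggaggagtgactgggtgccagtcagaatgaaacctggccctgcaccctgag
GAGGAA or its complement occurs 3 times in the window of Siglece and once in each of the other windows shown. It occurs at least once in 28.3% of 32851 RefSeq promoter windows of this length. Among the windows not shown, that of Pirb holds 3 such matches and those of Cd47 hold 0. The interferon-response-type pattern is found in Pilra among the windows shown and in 3.44% of all windows. The STAT6-type pattern, TTC and GAA 4 bases apart, found in 6.95% of all windows, and the C/EBP-type pattern, TTGC and CAA 2 bases apart, found in 2.08%, are in none of these 4. The window of Pirb, not shown, holds 1 C/EBP-type match. No marked match overlaps another, and a match describes letters only.

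Sirpa and Cd47, receptor and ligand of the same recognition pair, moved in opposite directions as macrophages formed. Sirpa (ENSMUSG00000037902, chromosome 2, 129592835 to 129632228, plus strand) encodes SIRPA, the inhibitory receptor for CD47. It had 826, 917 and 819.6 CPM in the 3 precursor libraries, 2929.9, 2787 and 2052 CPM in immature and 4257, 3602 and 4252 CPM in mature macrophages. No library of one stage overlapped another stage. Sirpa was 3.03-fold higher in immature macrophages than in precursors (log2 fold change 1.60 ± 0.22 SE, edgeR adjusted p = 0.00021) and 4.73-fold higher in mature macrophages than in precursors (2.24 ± 0.23, edgeR adjusted p = 1.89e-05). The difference of mature from immature macrophages, 0.64 ± 0.22, did not pass (edgeR adjusted p = 0.0714), and DESeq2 called it (adjusted p = 0.0117).

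Cd47 (ENSMUSG00000055447, chromosome 16, 49855618 to 49915010, plus strand) encodes the broadly expressed surface protein that marks cells as self and also binds thrombospondin-1. It had 163, 149.6 and 150.3 CPM in precursors, 113, 95.4 and 88.6 CPM in immature and 86.0, 66.5 and 68.0 CPM in mature macrophages. The stages again did not overlap, with the order reversed from that of Sirpa. Cd47 was 1.56-fold lower in immature macrophages than in precursors (log2 fold change -0.64 ± 0.17, edgeR adjusted p = 0.00927), a call lost without immature library 3 (-0.51, edgeR adjusted p = 0.0516). It was 2.10-fold lower in mature macrophages than in precursors (-1.07 ± 0.17, edgeR adjusted p = 0.000373), while mature against immature gave -0.43 ± 0.17 and did not pass (edgeR adjusted p = 0.109). Per kilobase of exon, counted within the span each row has in the tables, the ratio of Sirpa to Cd47 reads was 6.15 ± 0.60 in precursors, 28.9 ± 3.37 in immature and 61.4 ± 7.32 in mature macrophages (SD, n = 3 each).

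**Figure D1:**
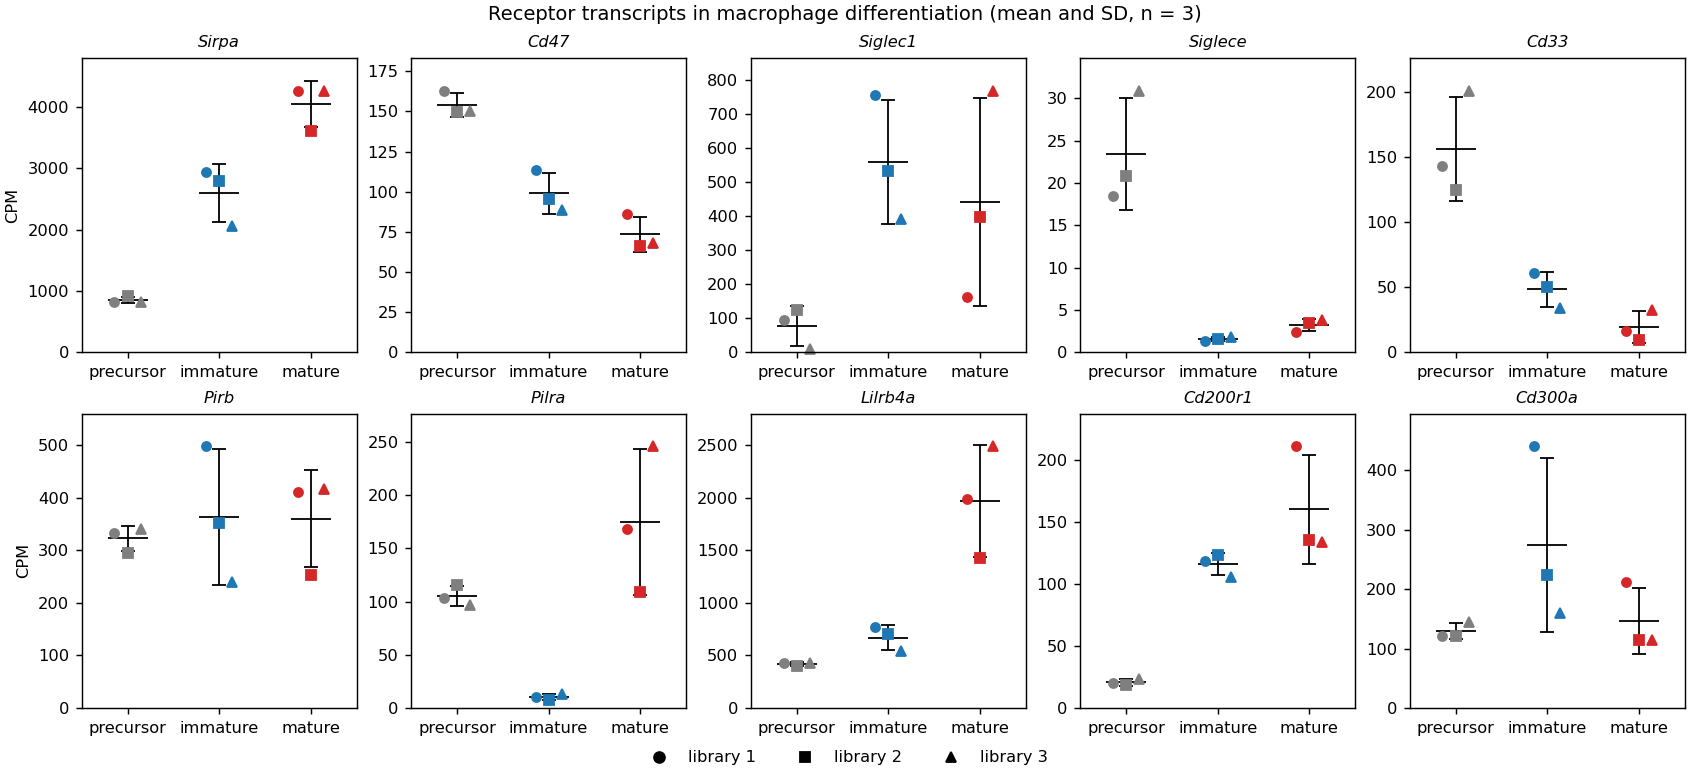
CPM of the 10 receptors (vertical axes, from 0) in precursor, immature and mature libraries, with a symbol for each library number, and the mean and SD of 3 libraries in black. The libraries of Sirpa, Cd200r1 and Lilrb4a are highest in mature macrophages and those of Cd47 and Cd33 in precursors, and Pilra dips to 7.78 to 12.9 CPM in immature macrophages, against 96.7 to 115 CPM in precursors.

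Among the sialic acid-binding lectins, Siglec1 was higher in macrophages, whereas Siglece and Cd33 were highest in precursors. Siglec1 (ENSMUSG00000027322, chromosome 2, 131069220 to 131086765, minus strand) encodes sialoadhesin, or CD169. It had 96.1, 125 and 10.8 CPM in precursors, 756, 534 and 393 CPM in immature and 162, 398 and 769 CPM in mature macrophages. The mature libraries spanned 4.74-fold and the precursor libraries 11.5-fold, the widest spreads of any of the 10 genes within a stage. Siglec1 was 7.25-fold higher in immature macrophages than in precursors (log2 fold change 2.86 ± 0.77, edgeR adjusted p = 0.0106) and 5.73-fold higher in mature macrophages than in precursors (2.52 ± 0.76, edgeR adjusted p = 0.0162). Mature and immature macrophages overlapped (-0.34 ± 0.72, edgeR adjusted p = 0.802). Without precursor library 3 the log2 fold changes from precursors were 2.35 in immature and 2.0 in mature macrophages and kept their calls, and without mature library 3 the mature value was 1.86 and lost its call (edgeR adjusted p = 0.0586).

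The order of the Siglec1 libraries within a differentiation stage was that of interferon-stimulated genes. The sum of 12 such genes, a list added after the values of Siglec1 were seen, was 989, 1199 and 268 CPM in the 3 precursor libraries, 1440.2, 1122 and 901 CPM in immature and 417, 466 and 547 CPM in mature macrophages. Within each stage the libraries stood in the same order for this sum as for Siglec1. Between stages they did not move together, as 2 of the 3 precursor libraries had a higher sum than every mature library and a lower Siglec1 level. The part of the interferon-stimulated genes in the differences of Siglec1 was not tested.

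**Figure D2:**
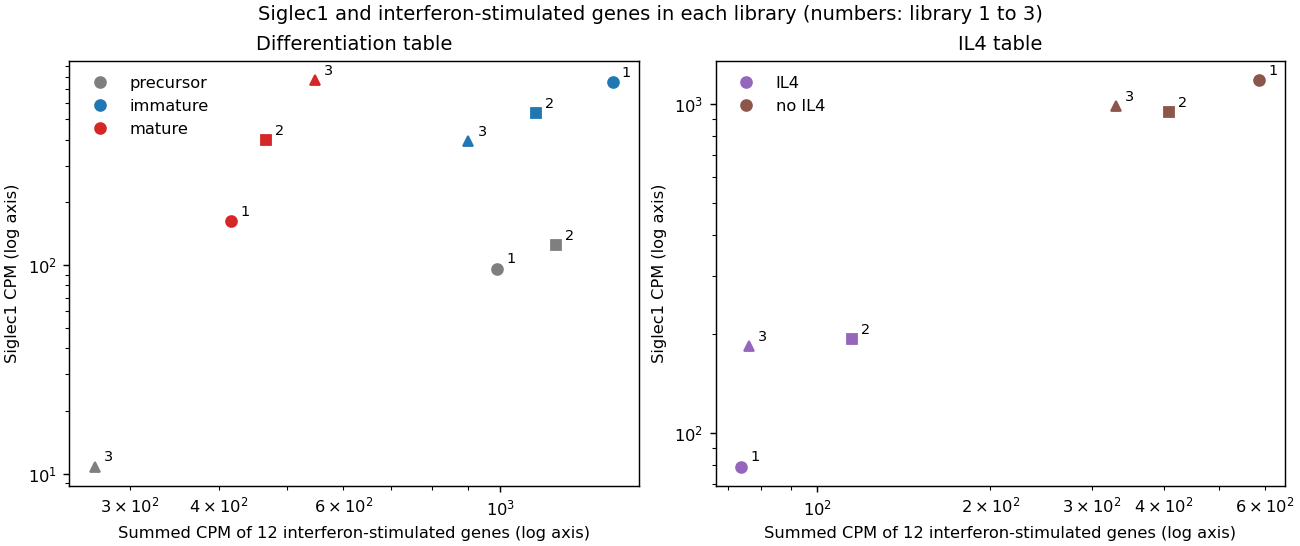
Siglec1 CPM against the summed CPM of 12 interferon-stimulated genes, both on log axes, in each library (numbers 1 to 3) of the differentiation table (left) and of the IL4 table (right, IL4 and unstimulated). Precursor library 3 is lowest on both axes at left, and the 3 IL4 libraries lie below and left of the 3 unstimulated ones, with some of the 12 genes, Ifit3 and Isg15 among them, at 0 reads throughout the IL4 table.

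Siglece (ENSMUSG00000030474, chromosome 7, 43651070 to 43660161, minus strand), an ITIM-bearing lectin of neutrophils and other myeloid cells, had 18.5, 20.8 and 30.9 CPM in precursors, 1.34, 1.53 and 1.79 CPM in immature and 2.43, 3.51 and 3.83 CPM in mature macrophages. The immature libraries rest on 17, 15 and 14 reads. Siglece was 15.1-fold lower in immature macrophages than in precursors (log2 fold change -3.92 ± 0.32, edgeR adjusted p = 7.44e-06) and 7.17-fold lower in mature macrophages than in precursors (-2.84 ± 0.30, edgeR adjusted p = 2.27e-05). It was 2.10-fold higher in mature than in immature macrophages (1.07 ± 0.32, edgeR adjusted p = 0.0483). That call was lost without precursor library 1 or 2 (edgeR adjusted p = 0.0591 and 0.0750), without any of the immature libraries (0.147, 0.140 and 0.0693) and without mature library 2 or 3 (0.103 and 0.0926), with log2 fold changes of 0.93 to 1.14. It was also lost with RLE scaling (edgeR adjusted p = 0.0502), with no filter (0.0542) and in a fit of only the 6 libraries compared (0.120).

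Cd33 (ENSMUSG00000004609, chromosome 7, 43524216 to 43544428, minus strand) is a lectin of the myeloid lineage whose signalling tail differs between mouse and human. It had 143, 124 and 201 CPM in precursors, 60.6, 49.8 and 34.4 CPM in immature and 16.6, 9.24 and 32.8 CPM in mature macrophages. Each stage lay below the one before it. Cd33 was 3.22-fold lower in immature macrophages than in precursors (log2 fold change -1.69 ± 0.40, edgeR adjusted p = 0.00506) and 7.93-fold lower in mature macrophages than in precursors (-2.99 ± 0.42, edgeR adjusted p = 0.000172). Mature against immature gave -1.30 ± 0.40 and just missed (edgeR adjusted p = 0.0513), passing with RLE scaling, no filter, DESeq2 or limma, and without immature library 3 (-1.53, adjusted p = 0.0399) or mature library 3 (-1.89, adjusted p = 0.00619). The neutrophil marker sum given above was, like Siglece and Cd33, highest in precursors, and its part in their differences was not tested.

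Of the paired immunoglobulin-like receptors, Pirb showed no change that passed in differentiation, Pilra was nearly lost in immature macrophages alone, and Lilrb4a was highest in mature macrophages. Pirb (ENSMUSG00000058818, chromosome 7, 3711409 to 3720391, minus strand), an ITIM receptor for MHC class I, had 332, 295 and 340.4 CPM in precursors, 497, 351 and 239 CPM in immature and 410.2, 253 and 416 CPM in mature macrophages. All stages overlapped, with log2 fold changes of 0.17 ± 0.28 (immature over precursor), -0.01 ± 0.28 (mature over immature) and 0.16 ± 0.28 (mature over precursor). Of the 31-base words in Pirb's exons 44.1% also occur in other genes, most of them in Gm14548, so reads could be split between Pirb and its relatives.

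Pilra (ENSMUSG00000046245, chromosome 5, 137821952 to 137836281, minus strand) encodes the inhibitory member of the PILR pair, which binds certain sialylated glycoproteins. It had 103, 115 and 96.7 CPM in precursors, 10.7, 7.78 and 12.9 CPM in immature and 168, 109 and 246 CPM in mature macrophages. The immature libraries were far below both other stages, and precursors and mature macrophages overlapped. Pilra was 10.1-fold lower in immature macrophages than in precursors (log2 fold change -3.33 ± 0.31, edgeR adjusted p = 1.6e-05) and 16.7-fold higher in mature than in immature macrophages (4.06 ± 0.32, edgeR adjusted p = 3.84e-05). Mature against precursor gave 0.73 ± 0.28 (edgeR adjusted p = 0.0430), a call that was lost with RLE scaling (adjusted p = 0.0524), limma (0.112) or only the 6 libraries (0.0502), and without precursor library 1, 2 or 3 (0.104, 0.0699 and 0.117) or mature library 1 or 3 (0.77, adjusted p = 0.0678, and 0.41, adjusted p = 0.160).

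The activating partners Pilrb1 and Pilrb2 had the same dip. Pilrb1 averaged 25.7 ± 3.80 CPM in precursors, 2.28 ± 0.82 CPM in immature and 24.1 ± 1.67 CPM in mature macrophages, and Pilrb2 averaged 43.7 ± 7.47 CPM in precursors, 3.02 ± 1.00 CPM in immature and 31.5 ± 7.64 CPM in mature macrophages (SD, n = 3 each). Both were lower in immature macrophages than in precursors (log2 fold changes -3.46 ± 0.28 and -3.83) and higher in mature than in immature ones (3.37 ± 0.28 and 3.35 ± 0.30). Pilra shares 28.5% of its 31-base words with other genes, and 14.0% with Zcwpw1, which overlaps it on the opposite strand. Zcwpw1 had 6.88 ± 1.12 CPM in precursors, 1.73 ± 0.76 CPM in immature and 5.50 ± 0.41 CPM in mature macrophages, and so was also lowest in the immature stage. How reads shared with Pilra were assigned was not tested.

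Lilrb4a (ENSMUSG00000062593, chromosome 10, 51480612 to 51496613, plus strand) encodes gp49B, an ITIM receptor of macrophages and mast cells. It had 433, 402 and 432 CPM in precursors, 767, 702 and 542 CPM in immature and 1991, 1426 and 2486 CPM in mature macrophages. No stage overlapped another. Lilrb4a was 2.93-fold higher in mature than in immature macrophages (log2 fold change 1.55 ± 0.24, edgeR adjusted p = 0.00206) and 4.66-fold higher in mature macrophages than in precursors (2.22 ± 0.25, edgeR adjusted p = 3.57e-05). Immature against precursor gave 0.67 ± 0.24 (edgeR adjusted p = 0.0371). That call was lost without precursor library 1, 2 or 3 (edgeR adjusted p = 0.0877, 0.105 and 0.0771) or immature library 1 or 2 (0.0985 and 0.0988), with log2 fold changes of 0.57 to 0.69, and by limma (adjusted p = 0.0915).

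The identity of the Lilrb4a row is uncertain. Of its 31-base words, 97.5% occur in other genes, 96.1% in a second gene that GENCODE M21 names Lilrb4a, and M21 names the identifier of this row Gm49339. Its span also overlaps Lilr4b on the same strand, the related activating gene. Lilr4b averaged 204 ± 29.6 CPM in precursors, 437 ± 84.4 CPM in immature and 1180.4 ± 195 CPM in mature macrophages, the same order as Lilrb4a.

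Cd200r1 and Cd300a, both of which read ligands on other cells, were each higher in immature macrophages than in precursors. Cd200r1 (ENSMUSG00000022667, chromosome 16, 44765736 to 44794978, plus strand) encodes the receptor for CD200, which signals through Dok adaptors and not through an ITIM. It had 20.2, 18.4 and 23.8 CPM in precursors, 119, 123 and 106 CPM in immature and 211, 136 and 134 CPM in mature macrophages. No stage overlapped another. Cd200r1 was 5.58-fold higher in immature macrophages than in precursors (log2 fold change 2.48 ± 0.22, edgeR adjusted p = 1.1e-05) and 7.72-fold higher in mature macrophages than in precursors (2.95 ± 0.22, edgeR adjusted p = 2.79e-06), and mature against immature gave 0.47 ± 0.20 and did not pass (edgeR adjusted p = 0.150).

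Cd300a (ENSMUSG00000034652, chromosome 11, 114890041 to 114904654, plus strand) encodes an ITIM receptor for the phospholipids that dying cells expose. It had 121, 121 and 144 CPM in precursors, 439.6, 224 and 160.3 CPM in immature and 211, 115 and 114 CPM in mature macrophages. Immature library 1 stood apart at 2.74 times the lowest immature library. Immature against precursor gave 1.09 ± 0.36 (edgeR adjusted p = 0.0270), and the call was lost without immature library 1 (0.58, edgeR adjusted p = 0.118), without precursor library 1, 2 or 3 (1.05 to 1.18, adjusted p = 0.0806, 0.0780 and 0.0508) and by limma (0.86, adjusted p = 0.0548). Mature against precursor gave 0.19 ± 0.36 (edgeR adjusted p = 0.670). Mature against immature gave -0.90 ± 0.36 (edgeR adjusted p = 0.115), and passed without immature library 3 (-1.22, adjusted p = 0.0394).

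Counted together, 5 of the 10 were higher and 4 lower in immature macrophages than in precursors, where 49.2% of all 13359 genes tested passed (22.5% higher and 26.6% lower). Mature against immature macrophages gave 3 higher and 0 lower, where 14.9% of all genes passed (7.52% higher and 7.38% lower). At an unadjusted p under 0.05, 5 were higher there, Sirpa and Cd200r1 beside those 3, and 3 were lower, Cd47, Cd33 and Cd300a, where 15.7% of all genes were higher and 15.0% lower by that measure, and DESeq2 and limma each called 1 lower, Cd33. Mature macrophages against precursors gave 5 higher and 3 lower, where 54.3% of all genes passed (25.8% higher and 28.5% lower). The median log2 fold changes over the 10 genes were 0.42, 0.23 and 0.46 in these comparisons, beside -0.07, 0.00 and -0.05 over all genes tested. The libraries did not overlap for 9 of the 10 between immature macrophages and precursors (65.0% of all genes), for 7 between mature and immature macrophages (32.2%) and for 7 between mature macrophages and precursors (64.1%). The count of higher genes in immature macrophages was 3 without precursor library 1, 2 or 3 or immature library 1, and that in mature macrophages over precursors was 3 without mature library 3. The 3 comparisons share libraries pairwise. The authors' deposited table lists 9, 2 and 7 of the 10 for these comparisons, all of them among the calls given here.

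**Figure D3:**
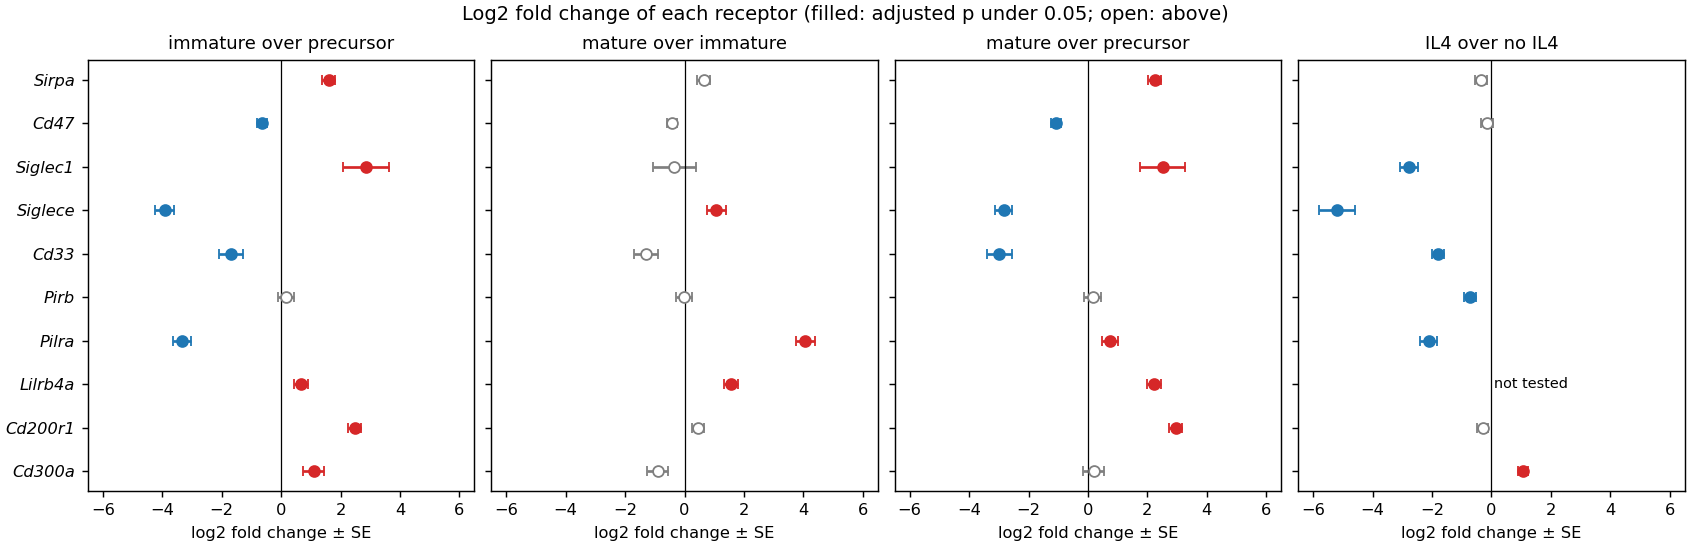
Log2 fold change ± SE of each receptor (rows) in the 4 comparisons (panels), red where higher and blue where lower with an adjusted p under 0.05, and open where not. Pilra lies at -3.33 in the first panel and at 4.06 in the second, and Pirb stays within 0.17 of 0 in differentiation. With IL4, 4 members by symbol and the row of Pirb named Lilrb3 are blue. Sirpa, Cd47 and Cd200r1 are open and left of 0 there.

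With IL4, 4 of the 8 receptors found by symbol were lower, Siglec1, Siglece, Cd33 and Pilra, and 1 was higher, Cd300a. Sirpa, Cd47 and Cd200r1 did not pass. Over all 8936 genes tested 20.8% passed (10.5% higher and 10.3% lower), or 937 higher and 918 lower. With the mouse number as a replicate block 1447 were higher and 1436 lower, and the calls of the 8 receptors were the same. The libraries did not overlap for 6 of the 8, as in 35.9% of all genes tested. The median log2 fold change was -1.07 over the 8 receptors and 0.01 over all genes tested.

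The 3 lectins fell together with IL4. Siglec1 had 79.0, 192 and 183 CPM in IL4-treated macrophages, against 1180.3, 945 and 986 CPM in unstimulated ones. The groups were far apart, and Siglec1 was 6.86-fold lower with IL4 (log2 fold change -2.78 ± 0.31, edgeR adjusted p = 9.4e-05). The sum of the 12 interferon-stimulated genes was also lower, at 73.9, 115 and 76.1 CPM with IL4, against 586, 409 and 331 CPM without, and its part in the result was not tested. Among the unstimulated libraries the sum and Siglec1 did not stand in the same order. Some genes of that list, Ifit3 and Isg15 among them, had no read in any of the 6 libraries.

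Siglece had 2, 1 and 0 reads in IL4-treated macrophages, against 81, 24 and 34 reads in unstimulated ones. In CPM these were 0.536, 0.331 and 0 with IL4, against 19.0, 9.89 and 8.38 without. By pooled reads it was 42.2-fold lower with IL4 (exact 95% interval 14.2 to 207, counting error only), and the fit gave a log2 fold change of -5.21 ± 0.61 (edgeR adjusted p = 0.000143), or -5.97 without IL4 library 1. Cd33, whose row in the IL4 table spans a shorter gene model (43527456 to 43533171), had 17.7, 20.9 and 21.1 CPM with IL4, against 70.6, 58.9 and 76.0 CPM without. It was 3.46-fold lower with IL4 (log2 fold change -1.79 ± 0.19, edgeR adjusted p = 8.7e-05). In these 6 libraries the neutrophil markers S100a9, Ly6g and Mpo had no read, and the summed neutrophil list was 5.62 to 19.9 CPM with IL4 and 10.3 to 26.4 CPM without, led by Mmp8. The sum of 11 macrophage markers was 12907 to 14895 CPM with IL4 and 12024 to 16095 CPM without, and of the 10 tested, 1 was higher with IL4, Gpnmb (5842 ± 734 CPM with IL4 and 2988 ± 456 CPM without), and 4 were lower, C1qb, C1qc, Mertk and Mrc1. The sum of 8 dendritic cell markers was 2599 to 4476 CPM with IL4 and 472 to 604 CPM without. Only 2 of them were tested, and they went opposite ways. Itgax was higher with IL4 (3107 CPM, against 34.2 CPM without) and Bst2 was lower (233 CPM, against 504 CPM without). Flt3, Siglech, Xcr1 and Ccr7 of that list had no read in either group. The sum of 9 eosinophil, mast cell and basophil markers was 18.4 to 40.7 CPM with IL4 and 0.986 to 4.95 CPM without, all of it from Ccr3. No B lineage marker had a read, and the part of these markers in the differences of the receptors was not tested.

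Pilra had 84.6, 44.7 and 51.4 CPM with IL4, against 363, 232 and 191 CPM without. The groups did not overlap, and Pilra was 4.34-fold lower with IL4 (log2 fold change -2.12 ± 0.30, edgeR adjusted p = 0.000475). Pilrb1 averaged 1.95 ± 1.14 CPM with IL4 and 12.6 ± 5.59 CPM without, a log2 fold change of -2.66, and Pilrb2, at 4 reads with IL4 and 51 without, changed by -3.40. The overlapping Zcwpw1 had 5 reads with IL4 and 4 without. The row of Pirb, named Lilrb3, had 169, 135 and 129 CPM with IL4, against 303, 197 and 209 CPM without. It was 1.64-fold lower with IL4 (-0.72 ± 0.21, edgeR adjusted p = 0.0313), a call lost without unstimulated library 1 (-0.50, adjusted p = 0.112) or without IL4 library 2 or 3 (-0.66, adjusted p = 0.126, and -0.64, adjusted p = 0.105).

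The row of Lilrb4a, named Lilrb4 in the IL4 table, held at most 1 read per library, and Gp49a, which overlaps it there, held 3 reads with IL4 and 2 without. It was not tested. Since nearly all of its sequence is shared with another gene, as given above, absence of the transcript and loss of its reads in counting cannot be told apart.

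Cd300a was the receptor that rose. It had 263, 286 and 296 CPM with IL4, against 118, 129 and 154 CPM without. The groups did not overlap, and Cd300a was 2.11-fold higher with IL4 (log2 fold change 1.08 ± 0.17, edgeR adjusted p = 0.00102). Of the activating members of its family, Cd300lb had 653 ± 63.8 CPM with IL4 and 206 ± 15.8 CPM without (1.67 ± 0.17, edgeR adjusted p = 5.28e-05), and Cd300ld had 2645 ± 275 CPM with IL4 and 954 ± 190 CPM without (1.47 ± 0.19, edgeR adjusted p = 0.000317). The inhibitory family member Cd300lf went the other way, at 4.30 ± 1.42 CPM with IL4 and 12.9 ± 5.37 CPM without (-1.58 ± 0.39, edgeR adjusted p = 0.0151). That call was lost without unstimulated library 2 or 3. Cd300a shares 8.20% of its 31-base words with other genes, Cd300c2 foremost.

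Sirpa, Cd47 and Cd200r1 gave smaller differences that did not pass. Sirpa had 3454, 3776 and 3643 CPM with IL4, against 3611, 4533 and 5739.85 CPM without (log2 fold change -0.35 ± 0.20, edgeR adjusted p = 0.269), and limma on the deposited log2 values called it lower (-0.70, adjusted p = 0.0467). Cd47 had 106, 111 and 137 CPM with IL4, against 126, 106 and 164 CPM without (-0.16 ± 0.20, edgeR adjusted p = 0.661). The groups overlapped for both genes, and the ratio of Sirpa to Cd47 per kilobase was 34.4 ± 4.40 with IL4 and 39.4 ± 7.85 without (SD, n = 3 each). Cd200r1 had 237, 176 and 239 CPM with IL4, against 268, 276 and 257 CPM without, so the libraries did not overlap, but the difference did not pass (-0.30 ± 0.17, edgeR adjusted p = 0.283). The 5 calls by symbol were kept under every one of the 12 alternatives run for each. The authors' deposited table lists these 5 genes and the row named Lilrb3.

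**Figure D4:**
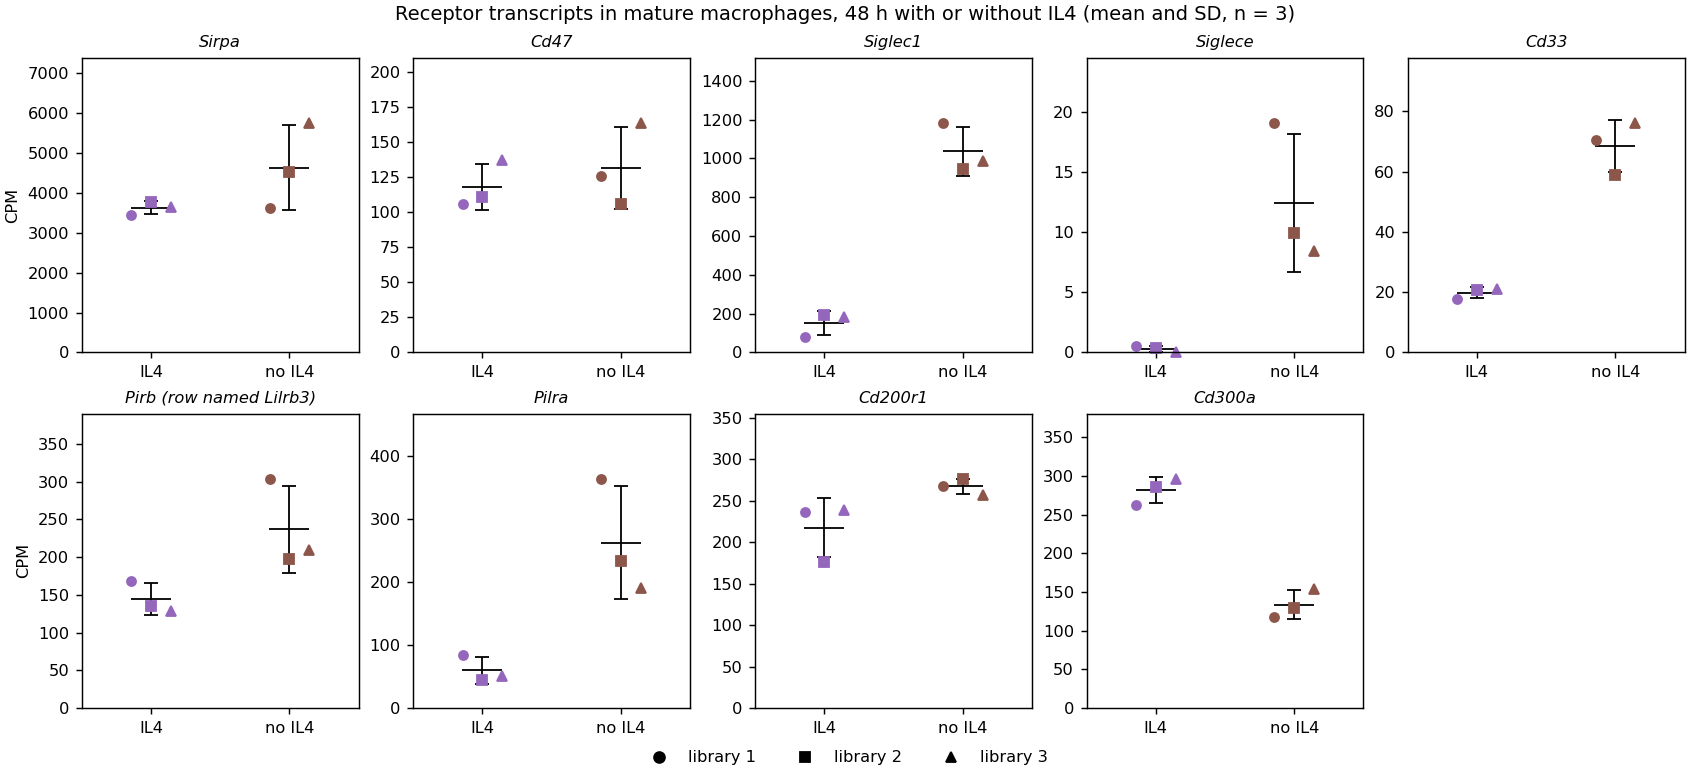
CPM (vertical axes, from 0) of 9 receptors in the 3 IL4-treated (left) and 3 unstimulated (right) libraries, with a symbol for each library number, and the mean and SD in black. The IL4 libraries lie below the unstimulated ones for Siglec1, Siglece, Cd33, Pilra and the row named Lilrb3, and above them for Cd300a, at 263 to 296 CPM against 118 to 154 CPM.

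The genes around the receptors were counted in 5 lists of related genes. Of 20 effectors of inhibitory motifs and Src-family kinases, 3 were higher and 10 lower in immature macrophages than in precursors (22.5% and 26.6% of all genes), with a median log2 fold change of -0.56 (-0.07 over all genes). Inppl1, which encodes the lipid phosphatase SHIP-2, was higher there (2.78 ± 0.24, edgeR adjusted p = 9.6e-06), and the kinase Fgr was lower (-4.96 ± 0.35, edgeR adjusted p = 3.94e-06). Mature against immature macrophages gave 2 calls, both higher (7.52% of all genes), among them Fyn, at 120.1 ± 23.2 CPM in mature and 38.6 ± 14.1 CPM in immature macrophages. With IL4, 3 of the 19 tested were higher and 7 lower (10.5% and 10.3% of all genes), with a median of -0.14 (0.01 over all genes). Src was higher with IL4 (25.6 ± 8.95 CPM, against 4.74 ± 2.10 CPM without), and Lyn, a kinase that phosphorylates inhibitory motifs, was lower (98.5 ± 11.8 CPM, against 227 ± 25.2 CPM without). Ptpn6 and Inpp5d, which encode SHP-1 and SHIP-1 and were chosen after their values were seen, were both lower. Ptpn6 averaged 183 ± 57.7 CPM with IL4 and 386 ± 69.3 CPM without (log2 fold change -1.08), and Inpp5d averaged 137 ± 29.3 CPM with IL4 and 289 ± 43.6 CPM without (-1.08). Ptpn11, which encodes SHP-2, averaged 142 ± 21.5 CPM with IL4 and 131 ± 20.8 CPM without and did not pass (0.12 ± 0.19, edgeR adjusted p = 0.7395).

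Of 16 ligands tested, 6 were higher and 7 lower in immature macrophages than in precursors (22.5% and 26.6% of all genes). In mature against immature macrophages 4 were lower (7.38% of all genes) and 12 did not pass. Thbs1, which encodes the CD47 ligand thrombospondin-1, averaged 998 ± 246 CPM in precursors, 97.9 ± 62.3 CPM in immature and 0.818 ± 0.571 CPM in mature macrophages. With IL4, 4 of 15 were higher and 1 lower (10.5% and 10.3% of all genes), and 10 did not pass. Cd200, the ligand of Cd200r1, had 28.9, 22.5 and 13.5 CPM with IL4, against 0.939, 0.412 and 0.247 CPM without (5.20 ± 0.47, edgeR adjusted p = 2.95e-05), while its receptor did not pass.

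Of 21 other inhibitory receptors tested, 6 were higher and 7 lower in immature macrophages than in precursors (22.5% and 26.6% of all genes), and 5 were higher and 5 lower in mature than in immature ones (7.52% and 7.38%). Among those 5 lower genes, Siglecg, Pecam1 and Clec1a were near the floor. They averaged 0.566, 0.473 and 1.24 CPM in immature macrophages and had no read in mature ones. Lair1, a collagen receptor, had 279 ± 63.4 CPM in mature and 57.9 ± 3.53 CPM in immature macrophages, and Siglecg had no read in mature macrophages and 39.7 ± 7.35 CPM in precursors, a level at least 429.9-fold lower with 3 reads over the group. With IL4, 5 of 15 were higher and 4 lower (10.5% and 10.3% of all genes). Cd22, a lectin of the same family as Siglece and Cd33, had 24.2 ± 4.46 CPM with IL4 and 5.39 ± 0.23 CPM without (2.16 ± 0.24, edgeR adjusted p = 9.14e-05), the direction opposite to that of Siglece and Cd33.

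Of 21 activating counterparts tested, 5 were higher and 12 lower in immature macrophages than in precursors (22.5% and 26.6% of all genes) and 8 were higher and 1 lower in mature than in immature macrophages (7.52% and 7.38%). The 1 lower gene, Siglech, was near the floor, at 0.745 CPM in immature macrophages and no read in mature ones. With IL4, 4 of 15 were higher and 6 lower (10.5% and 10.3%). Siglec15, an activating lectin, had 29.7 ± 12.6 CPM with IL4 and 1.57 ± 0.45 CPM without (4.27 ± 0.41, edgeR adjusted p = 3.92e-05). Of 22 genes that make or trim sialic acid, the ligand of the lectins, 7 were higher and 9 lower in immature macrophages than in precursors and 5 were higher and 2 lower in mature than in immature ones, and with IL4 3 of 18 were higher and 2 lower, beside the same shares of all genes. Cmah, which converts one form of sialic acid into another, had no read with IL4 and 9.20 ± 2.86 CPM without, at least 29.2-fold lower with 3 reads over the group. In mature macrophages against precursors, 6 effectors were higher and 6 lower, 4 ligands were higher and 6 lower, 8 other inhibitory receptors were higher and 10 lower, 5 activating counterparts were higher and 9 lower, and 6 sialic acid genes were higher and 5 lower, where 25.8% of all genes were higher and 28.5% lower.

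**Figure D5:**
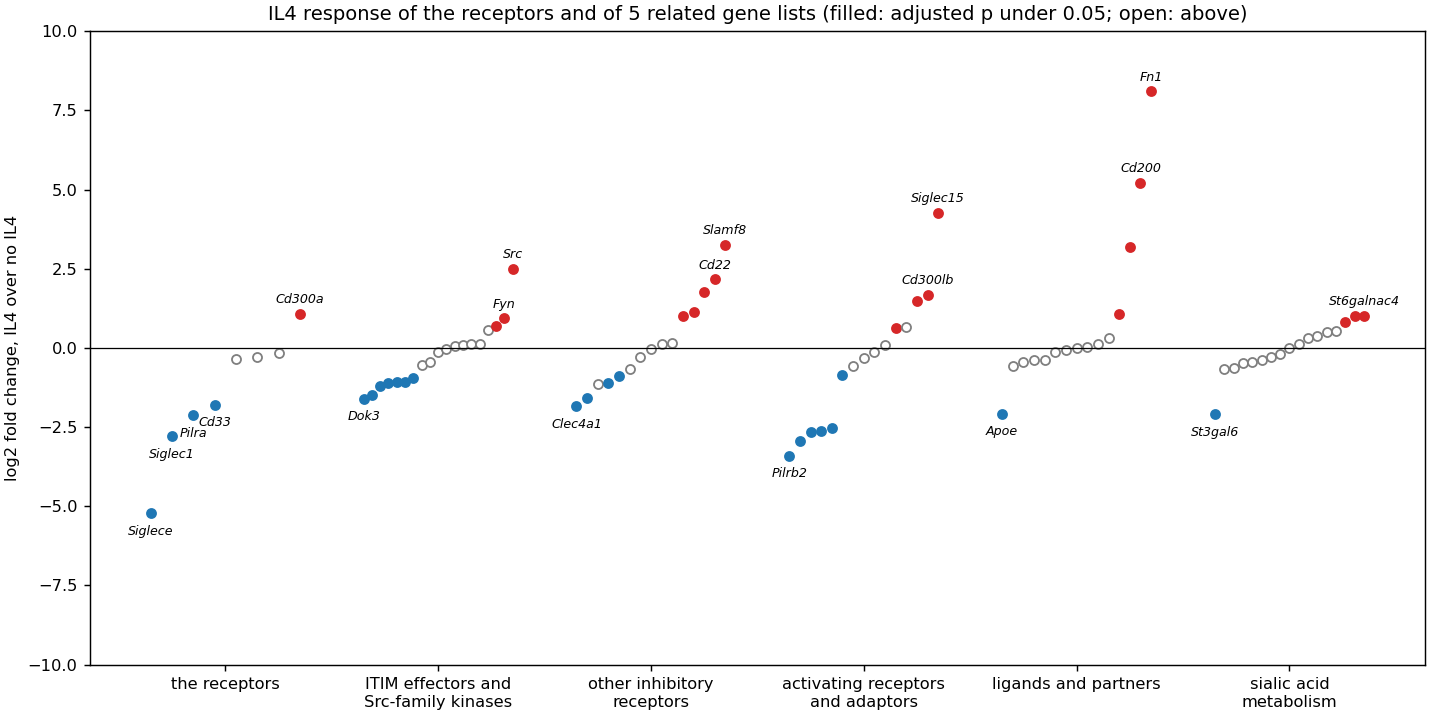
Log2 fold change of IL4 over unstimulated macrophages for the 8 receptors found by symbol and for the tested genes of 5 related lists, each sorted by value, red or blue where the adjusted p was under 0.05 and open where not. Each list holds genes on both sides, with Cd200 at 5.20 and Siglec15 at 4.27, and genes with no read in a group, such as Cmah, are left out.

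Per kilobase of exon within the span of each row the levels could be set in order. In precursors it ran Lilrb4a at 212 ± 8.74 CPM per kilobase, Sirpa at 174 ± 11.2, Pirb at 72.1 ± 5.40, Pilra at 34.0 ± 3.05, then Cd47, Cd300a, Cd33, Siglece, Siglec1 and Cd200r1, the last at 6.22 ± 0.83. From Cd47 downward each neighbour lay within the SD ranges of the next. In immature macrophages Sirpa led at 527 ± 95.9 CPM per kilobase over Lilrb4a at 337 ± 58.3, then came Pirb, Siglec1, Cd300a and Cd200r1, neighbours whose ranges overlapped, and below them Cd47, Cd33, Pilra and Siglece, at 18.2 ± 2.36, 6.21 ± 1.70, 3.39 ± 0.83 and 0.841 ± 0.122, which did not overlap. In mature macrophages Lilrb4a and Sirpa led with overlapping ranges (989 ± 267 and 822 ± 76.7 CPM per kilobase). Pirb, Siglec1, Pilra, Cd200r1 and Cd300a followed, each overlapping the next, then Cd47 at 13.5 ± 1.99, apart from both neighbours, and Cd33 and Siglece, which overlapped.

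With IL4 the order was Sirpa at 738 ± 32.9 CPM per kilobase, Cd200r1 and Cd300a with overlapping ranges (64.9 ± 10.6 and 59.5 ± 3.55), then the row of Pirb, below it Cd47, Siglec1 and Pilra, each overlapping the next, then Cd33 at 4.67 ± 0.45 and Siglece at 0.156 ± 0.146. Without IL4 it was Sirpa at 942 ± 217 CPM per kilobase, Siglec1 at 145 ± 17.6, Pilra and Cd200r1 with overlapping ranges (85.2 ± 29.1 and 79.8 ± 2.79), the row of Pirb at 52.9 ± 13.0, Cd300a and Cd47 overlapping, Cd33 at 16.1 ± 2.05 and Siglece at 6.72 ± 3.11. For Cd33 the exons within the shorter row of the IL4 table, 4257 of 7771 bases, were used. Siglec1 stood at rank 6 with IL4 and at rank 2 without it.

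For 9 of the receptors the gene with the most similar course over the 9 differentiation libraries was taken, by the Euclidean distance of log2 CPM after centring each gene. Genes with predicted, clone-type or duplicated names were left out of this search and of the medians. For Lilrb4a it was Lilr4b (distance 0.65, against a median of 3.14 over the genes searched). For Siglec1 it was Oas1g, an interferon-stimulated gene (2.02, median 5.68), and for Pilra it was Itgax, which encodes the integrin CD11c (1.24, median 5.62). Itgax averaged 69.9 ± 7.54 CPM in precursors, 7.04 ± 0.96 CPM in immature and 130.1 ± 119 CPM in mature macrophages. In the IL4 table Pilra and Itgax parted, as Itgax averaged 3107 ± 1000 CPM with IL4 and 34.2 ± 28.7 CPM without, while Oas1g, at 16.9 ± 2.08 CPM with IL4 and 53.9 ± 8.47 CPM without, was lower as Siglec1 was. Other nearest genes were Dynlt3 for Sirpa (0.48), Spty2d1 for Cd47 (0.26), Adpgk for Siglece (0.32), Kxd1 for Pirb (0.33), Maged2 for Cd200r1 (0.53) and Mknk1 for Cd300a (0.56). Within the 10, Sirpa and Cd200r1 were closest to each other (1.31).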

How the data were processed

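Ion Torrent libraries of 15 RNA samples were used, 3 in each of 5 groups taken from the titles. Deposited by the authors were 2 tables of raw gene counts, log2 RPM for the same genes, and lists with an adjusted p-value (FDR). The log2 RPM deposited by the authors had matching sorted values between libraries. Reads were aligned with HISAT2 2.0.5 and edgeR was used, with builds GRCm38.p6 and GRCm39.p6 named, per the submitters' processing notes. The sources used here give neither the counting program nor the strand setting, so reads of overlapping genes on opposite strands cannot be told apart. Coordinates are those of the deposited tables and were compared with GENCODE M21 (GRCm38), which gave shared 31-base words and, within each row's span, exon lengths.

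Counts were tested in R 4.3.3 with edgeR 4.0.16 (filterByExpr with a minimum count of 10, TMM, glmQLFit and glmQLFTest, Benjamini-Hochberg adjustment over all genes tested, calls under 0.05), with 1 fit over the 9 libraries of the differentiation table and 1 over the 6 of the IL4 table, which tested 13359 and 8936 genes. SE is the log2 fold change divided by the square root of F. The fit was tested on simulated data. Alternatives were RLE scaling, DESeq2 1.42.0, no filter, at least 1 CPM in at least 3 libraries, limma 3.58.1 on the log2 RPM, the replicate block, only the 6 libraries compared, and leaving out each library. In the IL4 table, deviations of libraries with the same mouse number in the titles correlated by 0.591, 0.175 and 0.413. Those with different numbers correlated by -0.487 to 0.248, so the ranges overlap. The numbers were taken to pair the libraries in the block, although the column names carry other numbers. The IL4 values given come from the fit without the block, except where the block is named.

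The genes and lists were chosen with earlier results of these data known. Named from each list are up to 3 called genes of lowest p (5 CPM or more in the higher group), not all of them printed, and the highest gene of each marker list. Other genes named are family partners, overlapping genes or nearest genes, and that of Cd33 is left unnamed. A fold against a group at 0 reads uses 3 reads over the group.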

Additional observations from a re-analysis of the deposited data

How the results depend on the processing

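Over the alternatives, the fold changes of the 10 receptors gave 144 values for calls in immature over precursor (131 kept, 13 lost), 48 in mature over immature (38 kept, 10 lost), 128 in mature over precursor (118 kept, 10 lost) and 60 with IL4, all kept. Directions reversed for genes that had not passed. Pirb gave -0.11951 without immature library 1, up to 0.44827 without immature library 3, and -0.068893 by limma (immature over precursor). It gave 0.28555 without immature library 1, 0.18825 without mature library 2, down to -0.27845 without immature library 3 (mature over immature) and -0.11136 by limma (mature over precursor). Siglec1 gave -1.001 to 0.0575, the higher value without mature library 1 (mature over immature), Cd300a -0.16012 without mature library 1 and up to 0.34932 (mature over precursor), and Cd47 0.02308 without unstimulated library 3 and down to -0.29242 (IL4). RLE scaling, no filter, the replicate block, DESeq2 and limma each called 1 receptor lower in mature than in immature macrophages, Cd33, and limma called 3 higher in immature macrophages than in precursors. Limma on the log2 RPM moved the median of all genes by 0.102 in that comparison. Only the 6 libraries compared gave 633 genes higher and 612 lower in mature than in immature macrophages, and the replicate block gave 1447 higher and 1436 lower with IL4. The cause was not tested.

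Leaving out each library gave, of the receptors, 3 to 5 higher and 3 to 4 lower (immature over precursor), 2 to 3 higher and 0 to 2 lower (mature over immature), 3 to 5 higher and 3 lower (mature over precursor), and 1 higher and 4 lower with IL4. Over all genes it gave 2405 to 3297 higher and 2768 to 4000 lower, 423 to 1266 higher and 584 to 1436 lower, 2905 to 3615 higher and 3334 to 4169 lower, and 698 to 880 higher and 677 to 857 lower, in the same order of comparisons. The lowest counts of mature over immature came without immature library 2 (423 and 584), and 571 were higher without immature library 1. In differentiation, libraries of the same mouse number correlated by -0.1287 to 0.1652, so the numbers were not taken to pair them, and the block there lost the calls of Lilrb4a (immature over precursor) and Pilra (mature over precursor) and gained that of Cd33. Low read counts limit the row of Lilrb4a in the IL4 table, at no more than 1 read per library. The same identifier had 12186 to 32486 reads in mature libraries of the differentiation table, and the cause was not tested. Low read counts also limit Siglece, at 14 to 17 reads in immature and 0 to 2 in IL4-treated libraries.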
